A study of Mus musculus with 9 samples.

Results

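The ligands described here are the vascular endothelial growth factors Vegfa, Vegfb and Vegfc, the placental growth factor Pgf, the angiopoietins Angpt1 and Angpt2, and the angiopoietin-like protein Angptl4. They were taken by gene symbol from the probe annotation of the array, 7 genes of the 15967 that had a probe with 1 symbol. These genes had 10 probes. A probe was tested if some group had it above background on each of its 3 arrays, which 7 probes met, 1 for each gene. Vegfc, Pgf, Angpt2 and Angptl4 met it through induced cells and islets, Angpt1 through induced and non-islet cells, and Vegfa and Vegfb through every group. Counts, fitted differences and adjusted p against a group that failed it are therefore descriptions and not tests. The same holds for the genes of the lists below. Illumina mouse bead arrays had been hybridized with RNA of 3 sample kinds from adult mouse pancreas, 3 samples of each. Induced cells were cells positive for green fluorescent protein (GFP), sorted by flow cytometry from rag-/- pancreas 1 month after infection with an adenovirus called M3, about 5000 cells per sample. The labels put the insulin-positive share of the sort at 22%, so that insulin-negative cells made up the larger part. Whole islets were 4 to 5 hand-picked islets of adult pdx-gfp transgenic mice, which hold beta cells, other hormone cells and capillaries. Non-islet cells were about 10000 cells of the pancreatic tissue left after islets had been removed from an animal that the labels call pdxa-gfp. The labels give no antigen for the sort other than GFP, no sex and no mouse number. The virus and the rag-/- genotype belonged to the induced samples alone and cannot be told apart from the induced state. Nor can the GFP sort of induced cells and the hand-picking of whole islets be told apart from these groups. The repeats are called independent but nothing ties them to separate animals. A p-value here therefore reflects only how these samples scatter, and that scatter may be technical.

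VEGF proteins are secreted ligands that act on receptor tyrosine kinases of blood and lymphatic endothelium. Vegfa, acting through its main receptor Kdr, drives the sprouting and permeability of blood vessels, and beta cells are a known source of it that gives the islet its dense network of fenestrated capillaries. Angpt1 activates the endothelial receptor Tek and stabilizes vessels, whereas Angpt2 binds the same receptor and acts, depending on context, as its antagonist. The question put to the data was whether induced cells carried the transcripts of the ligands with which islets attract vessels.

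The groups differed widely across the array. Of 13928 probes tested 48.6% were called between induced cells and islets at an adjusted p of 0.05, 22.5% as higher and 26.1% as lower in induced cells. The shares called were 76.2% for induced against non-islet cells (39.6% higher, 36.6% lower) and 74.7% for islets against non-islet cells (40.5% higher, 34.1% lower). Probes above background numbered 13592 per induced array, 13679 per islet array and 9544 per non-islet array, on average. The 50 brightest probes held 13.1% to 13.4% of the signal on induced arrays, 14.4% to 16.6% on islet arrays and 42.6% to 46.3% on non-islet arrays. The lowest normalized signal that counted as above background lay between 2.60 and 2.79 on induced arrays, between 2.53 and 2.74 on islet arrays and between 8.04 and 10.1 on non-islet arrays, so weak transcripts were harder to see in non-islet cells. Signals are quantile-normalized intensities, and differences are log2 differences after an offset of 11.9 had been added, which shrinks the differences of weak probes.

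The labels were set against cell type markers. Of 8 beta cell genes tested, induced cells were lower than islets for 7 and higher for Pdx1, a transcription factor of the beta cell lineage (2003 ± 80.0 in induced cells against 249.6 ± 13.4 in islets, SD, n = 3 each). The part of the virus in the Pdx1 signal was not tested. Against non-islet cells 7 of the 8 genes were higher in induced cells and 1, Ucn3, was not called. Ucn3, a peptide of mature beta cells, averaged 1.33 ± 1.59 in induced cells, above background on 1 of 3 arrays, and 806 ± 28.1 in islets. Acinar genes differed among themselves. Amy2a5, an amylase, averaged 4606 ± 258 in the deposited values of induced cells, 6531 ± 614 in islets and 21262 ± 1108 in non-islet cells (SD, n = 3 each), whereas quantile normalization brings the brightest probes of all arrays close together. Ctrc, a chymotrypsin, averaged 55.1 ± 0.329 in the deposited values of induced cells, 3679 ± 367 in islets and 17611 ± 1021 in non-islet cells.

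Relative to islets, 3 of the 7 ligand genes were lower in induced cells, none was higher and 4 were not called. The 3 were Vegfa, Vegfb and Vegfc. The called share, 42.9%, lay near the 48.6% of all probes, and the median log2 difference of the 7 genes was -0.01 beside -0.04 over all genes. At equal noise SD the count was 3 higher and 2 lower, and in a fit of the 2 compared groups only it was 3 higher and 3 lower. By direction, 0 of 7 were higher beside 22.5% of all probes and 3 of 7 lower beside 26.1%. Relative to non-islet cells, 4 ligand genes were higher in induced cells (57.1% beside 39.6% of all probes), namely Vegfa, Pgf, Angpt2 and Angptl4, 2 were lower (28.6% beside 36.6%), namely Vegfb and Angpt1, and Vegfc was not called. At equal noise SD 6 were higher and 1 was lower. In islets against non-islet cells 5 were higher (71.4% beside 40.5%), 1 was lower (14.3% beside 34.1%) and 1 was not called. The median of the 7 genes was 0.79 beside 0.07 over all genes for induced minus non-islet cells, and 0.62 beside 0.10 for islets minus non-islet cells. The 0.79 was the value of Pgf and the 0.62 that of Angptl4, neither above background on any non-islet array. These medians are therefore descriptions and show no excess of the ligand genes as a set. The last 2 comparisons use the same non-islet arrays.

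**Figure D1:**
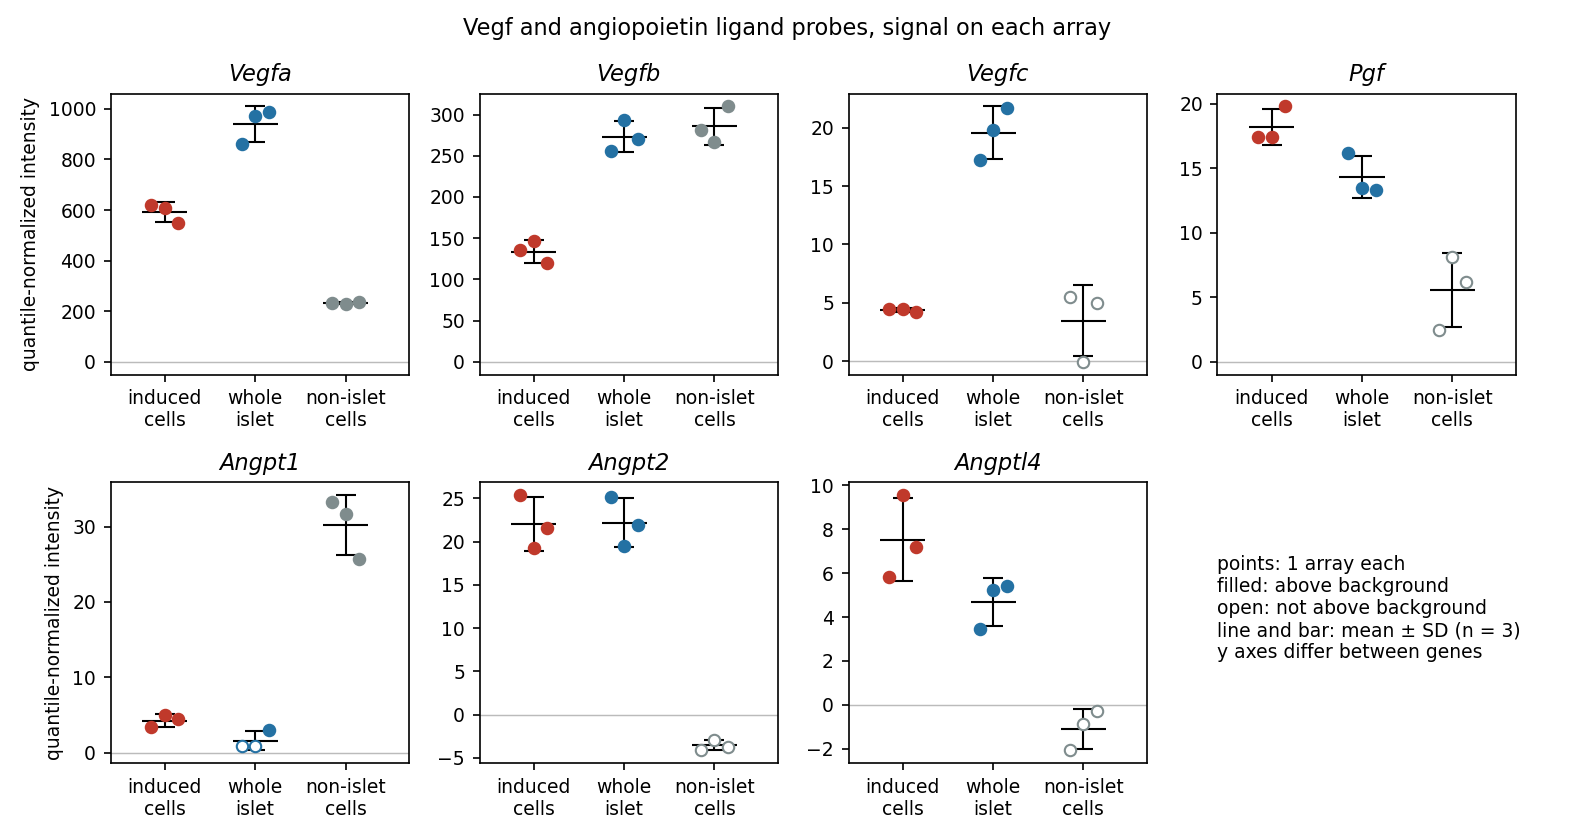
Quantile-normalized intensity of the probe of each ligand gene (y axis, a scale of its own in each panel) on the 3 arrays each of induced cells, whole islets and non-islet cells; points are arrays, filled where above background, and the line and bar give mean and SD. Vegfa lies between 547 and 621 in induced cells, below the islet arrays and above the non-islet arrays, while Angpt2 spans nearly the same range in induced cells and islets.

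The Vegfa signal of induced cells lay between those of islets and non-islet cells. It was 621, 609 and 547 in induced cells, 859, 973 and 987 in islets, and 233.0, 229.6 and 237.1 in non-islet cells. All induced arrays lay below all islet arrays and above all non-islet arrays. The log2 difference of induced cells from islets was -0.65 ± 0.09 (SE, 95% interval -0.86 to -0.45, adjusted p = 0.000133), and that from non-islet cells was 1.30 (adjusted p = 1.96e-07). Islets exceeded non-islet cells by 1.95 (adjusted p = 7.87e-09). Leaving out any 1 array left the difference from islets between -0.73 and -0.60. When the arrays were instead scaled to equal noise SD, the difference from islets was -0.18 and was not called (adjusted p = 0.213). Over all alternatives that adjusted p ran between 1.09e-06 and 0.213.

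Vegfb, a ligand of the receptor Flt1 linked to fatty acid uptake by vessels and to the survival of vascular cells, was lower in induced cells than in both other groups. Its signal was 135.1, 146.9 and 119.5 in induced cells, 256, 294 and 270.1 in islets, and 281, 266 and 310.0 in non-islet cells. The induced arrays did not overlap with those of either group, whereas islet and non-islet arrays overlapped. Induced cells differed from islets by -0.97 ± 0.10 (SE, adjusted p = 1.48e-05) and from non-islet cells by -1.03 (adjusted p = 3.38e-06). The second of these depended on the scaling. Under a common median the value was -0.76. In the deposited values Vegfb averaged 167 ± 18.9 in induced cells, 321 ± 28.0 in islets and 174 ± 26.2 in non-islet cells (SD, n = 3 each), and the difference of induced from non-islet cells was -0.05 (adjusted p = 0.722). With arrays scaled to equal noise SD it was 1.43, in the other direction. Its adjusted p ran between 4.84e-09 and 0.722 over all alternatives. Islets and non-islet cells differed by -0.06 (95% interval -0.29 to 0.17, adjusted p = 0.608), but by 0.85 in the deposited values and by 2.00 after scaling to equal noise.

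Vegfc, the main growth factor of lymphatic vessels through the receptor Flt4, was weak everywhere and clearest in islets. Its signal was 4.48, 4.50 and 4.18 in induced cells, 17.2, 19.8 and 21.7 in islets, and 5.49, -0.06 and 4.99 in non-islet cells. Every induced array lay below every islet array, and induced and non-islet arrays overlapped. The probe was not above background on any non-islet array. Induced cells differed from islets by -0.95 ± 0.14 (SE, adjusted p = 0.000161). The difference from non-islet cells was 0.10 (95% interval -0.20 to 0.41, adjusted p = 0.505), and it was -0.07 without the non-islet array 2. It was called with arrays scaled to equal noise SD (0.49, adjusted p = 0.00165), and over all alternatives its adjusted p ran between 0.00165 and 0.937. Islets were at least 1.50-fold above the background limit of the non-islet arrays (fit: 1.05, adjusted p = 3.15e-05).

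Since Vegfa, Vegfb and Vegfc were called lower in induced cells than in islets together, the 250 bases before their annotated starts are shown, in RefSeq's promoter table of the build GRCm38.p6. This table held 4 of the 7 ligand genes; the first listed start of Vegfa was used, of 2. Capitals mark exact matches, on either strand, to ACGTG or GCGTG, the core letters of the element bound by hypoxia-inducible factors, and to GGGCGG, the GC box bound by Sp1-type factors. The Vegfa window is chr17:46032378-46032627 on the minus strand, the Vegfb window chr19:6987652-6987901 on the minus strand and the Vegfc window chr8:54077282-54077531 on the plus strand.
Vegfa: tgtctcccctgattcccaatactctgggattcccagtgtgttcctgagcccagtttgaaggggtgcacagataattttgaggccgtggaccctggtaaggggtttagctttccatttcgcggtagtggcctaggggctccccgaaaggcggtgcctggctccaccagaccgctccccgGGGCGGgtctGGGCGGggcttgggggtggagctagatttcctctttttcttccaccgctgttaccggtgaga
Vegfb: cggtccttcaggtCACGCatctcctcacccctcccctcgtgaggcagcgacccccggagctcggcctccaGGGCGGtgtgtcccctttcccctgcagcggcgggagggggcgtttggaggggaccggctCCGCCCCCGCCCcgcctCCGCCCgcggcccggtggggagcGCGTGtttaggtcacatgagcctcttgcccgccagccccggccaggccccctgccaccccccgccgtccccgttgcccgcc
Vegfc: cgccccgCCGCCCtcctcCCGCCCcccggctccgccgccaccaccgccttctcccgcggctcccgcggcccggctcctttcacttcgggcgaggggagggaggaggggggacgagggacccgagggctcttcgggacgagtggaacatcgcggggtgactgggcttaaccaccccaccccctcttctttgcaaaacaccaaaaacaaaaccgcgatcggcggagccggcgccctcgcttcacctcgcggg
GGGCGG or its complement CCGCCC occurred 2 times in the Vegfa window, 4 times in the Vegfb window, where neighbouring matches adjoin, and 2 times in the Vegfc window. GCGTG or its complement CACGC occurred 2 times in the Vegfb window and in neither other window, and ACGTG or CACGT in none of the 3. Only these 250 bases were searched, so a window without a match does not mean that the gene lacks the element. Over all 32851 windows of the same length, 32.7% held GGGCGG and 38.6% held ACGTG or GCGTG. The G and C content was 59.2% for Vegfa, 76.4% for Vegfb and 71.6% for Vegfc. Pgf, the other ligand gene in the promoter table, was not called against islets. Its window, not shown, held 2 GGGCGG matches and 1 GCGTG match at 68.4% G and C, so GC boxes did not set the 3 genes apart. These matches describe the letters of the windows and not binding.

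Pgf, a ligand of Flt1, was above background on every induced and islet array. Its signal was 17.4, 17.4 and 19.8 in induced cells, 16.2, 13.5 and 13.3 in islets, and 2.45, 8.08 and 6.21 in non-islet cells, where no array was above background. The lowest induced array lay above the highest islet array. The difference of 0.20 from islets was not called (95% interval -0.07 to 0.47, adjusted p = 0.208). It was called with arrays scaled to equal noise SD (0.36, adjusted p = 0.00867), with array weights (adjusted p = 0.0287) and with the non-islet arrays left out of the fit (adjusted p = 0.0384). Its adjusted p ran between 0.00867 and 0.507 over all alternatives. Pgf was at least 1.43-fold above the background limit of non-islet arrays in induced cells (fit: 0.79, adjusted p = 0.000103), and at least 1.25-fold above it in islets (adjusted p = 0.000949).

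Angpt2, which was above background on every induced and islet array, was not called between these groups. Its signal was 25.4, 19.3 and 21.5 in induced cells, 25.2, 19.5 and 21.9 in islets, and -4.05, -2.89 and -3.70 in non-islet cells. The induced and islet arrays covered the same range, and all 3 non-islet arrays were below 0. The difference from islets was -0.01 with a 95% interval of -0.24 to 0.23 (adjusted p = 0.968). Against non-islet cells, induced cells were at least 1.61-fold above the background limit (fit: 2.02, adjusted p = 1.57e-08) and islets at least 1.62-fold (fit: 2.03, adjusted p = 1.65e-08). As for Vegfc, Pgf and Angptl4, the probe met the filter through induced cells and islets only, so both fits are descriptions. A further Angpt2 probe was above background on 1 induced array, 2 islet arrays and 0 non-islet arrays and was not tested.

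Angpt1 had the opposite order, with its highest signal in non-islet cells. Its signal was 3.38, 5.00 and 4.44 in induced cells, 0.87, 0.85 and 3.04 in islets, and 33.3, 31.6 and 25.7 in non-islet cells. It was above background on 3 induced arrays and on 1 islet array, at levels near the limit. Against non-islet cells the difference was -1.37 for induced cells (adjusted p = 3.65e-07) and -1.64 for islets (adjusted p = 9.41e-08). With arrays scaled to equal noise SD these were -0.26 (adjusted p = 0.0472) and -0.60 (adjusted p = 7.82e-05). The difference of induced cells from islets was 0.26 (95% interval 0.03 to 0.50, adjusted p = 0.0600) with arrays that did not overlap. It was called in 6 of the alternative fits, among them the fit without islet array 3 (0.34, adjusted p = 0.0362), and over all of them the adjusted p ran between 0.00670 and 0.225. The other Angpt1 probe was below background on all 9 arrays, with a difference of -0.05 from islets in a fit without the filter, so the direction against islets rests on 1 probe.

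Angptl4, a secreted inhibitor of lipoprotein lipase that PPAR factors and hypoxia induce, was weak in induced cells and islets. Its signal was 5.81, 9.57 and 7.20 in induced cells, 3.45, 5.23 and 5.40 in islets, and -2.07, -0.88 and -0.30 in non-islet cells. Induced arrays lay above islet arrays and both lay above the non-islet arrays, none of which was above background. The difference from islets was 0.22 (95% interval -0.01 to 0.46, adjusted p = 0.107), and it was called with arrays scaled to equal noise SD (0.32, adjusted p = 0.0307) and with the non-islet arrays left out of the fit (adjusted p = 0.0401). Its adjusted p ran between 0.0307 and 0.4995 over all alternatives. Against non-islet cells the fitted difference was 0.84 in induced cells (adjusted p = 2.18e-05) and 0.62 in islets (adjusted p = 0.000274), with no fold given, as the signals lay below the non-islet background limit. The other Angptl4 probe, above background on 2 induced, 2 islet and 0 non-islet arrays, differed from non-islet cells by -0.09 in induced cells and by -0.22 for islets.

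**Figure D2:**
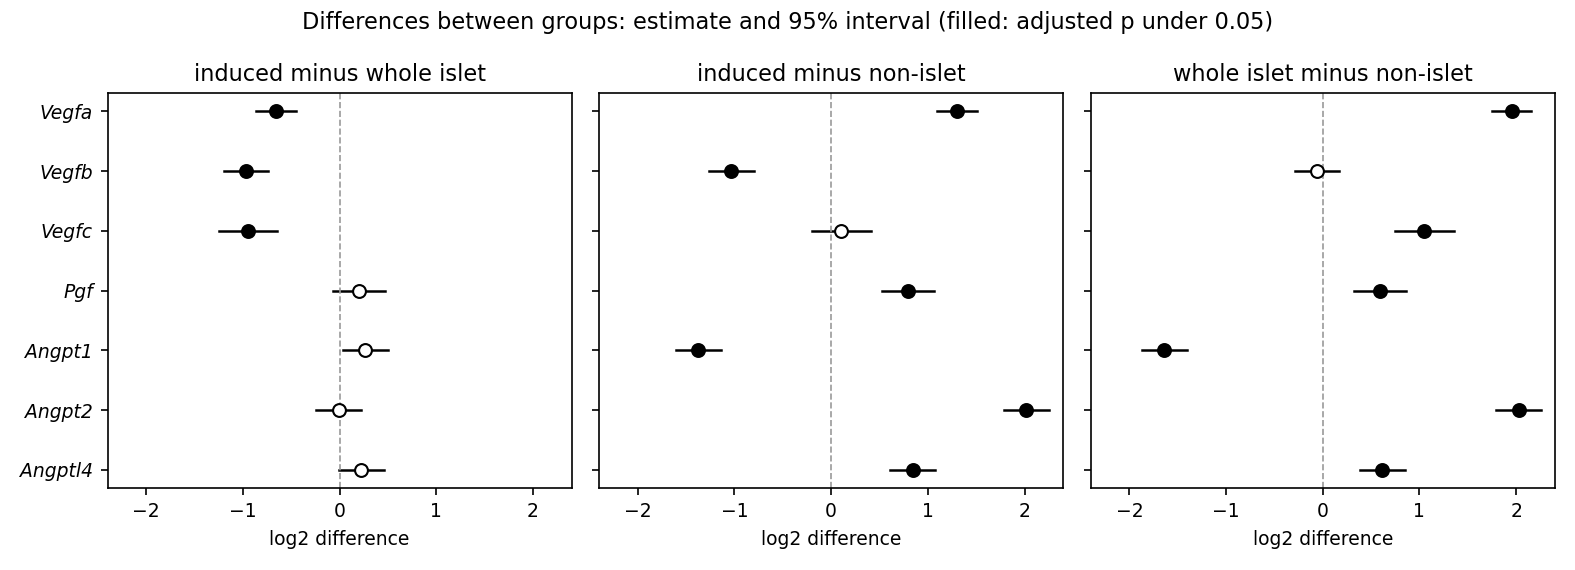
Log2 difference (x axis) of induced cells from islets, of induced from non-islet cells and of islets from non-islet cells for each ligand gene, with its 95% interval over the 9 arrays; filled points have an adjusted p under 0.05. Against islets, Vegfa, Vegfb and Vegfc lie below 0, and the 4 other estimates run from -0.01 for Angpt2 to 0.26 for Angpt1. The Angpt1 interval, 0.03 to 0.50, lies above 0, at an adjusted p of 0.0600.

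Directions against non-islet cells were set against the scaling of the arrays, because the median of all probes moved with it. For induced minus non-islet cells that median was 0.50 in the deposited values, 0.14 with arrays scaled to a common median and 1.32 with arrays scaled to equal noise SD. For islets minus non-islet cells it was 0.62, 0.13 and 1.23, and for induced cells minus islets -0.12, -0.02 and 0.08. The share of called probes that were higher in induced than in non-islet cells was 52.0% after quantile normalization, 71.5% in the deposited values and 94.5% at equal noise. For islets against non-islet cells these shares were 54.3%, 77.1% and 93.9%, and for induced cells against islets 46.3%, 39.5% and 60.8%. The difference of induced from non-islet cells reached 3.75 for Vegfa and 1.65 for Pgf at equal noise, and 4.03 for Angpt2 at a common median. These were called under all 4 scalings. Pgf, Angpt2 and Angptl4 were above background on no non-islet array, so their values and calls here are descriptions. The non-islet values of Angpt2 lay below 0, so the size of its difference depends on the offset. Relative to the median of all probes, Vegfa was higher in induced than in non-islet cells by 1.75 in the deposited values, 1.41 at a common median and 2.42 at equal noise. Angpt2 did so by 2.18, 3.90 and 1.40, and Angpt1 was at -1.41, -1.48 and -1.58. Vegfb kept no direction, at -0.55, -0.90 and 0.10, nor did Angptl4, at 0.51, 1.08 and -0.10. Against islets, the values relative to that median were -0.40, -0.32 and -0.26 for Vegfa, -0.78, -0.70 and -0.66 for Vegfb, and -1.06, -0.99 and -1.34 for Vegfc.

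**Figure D3:**
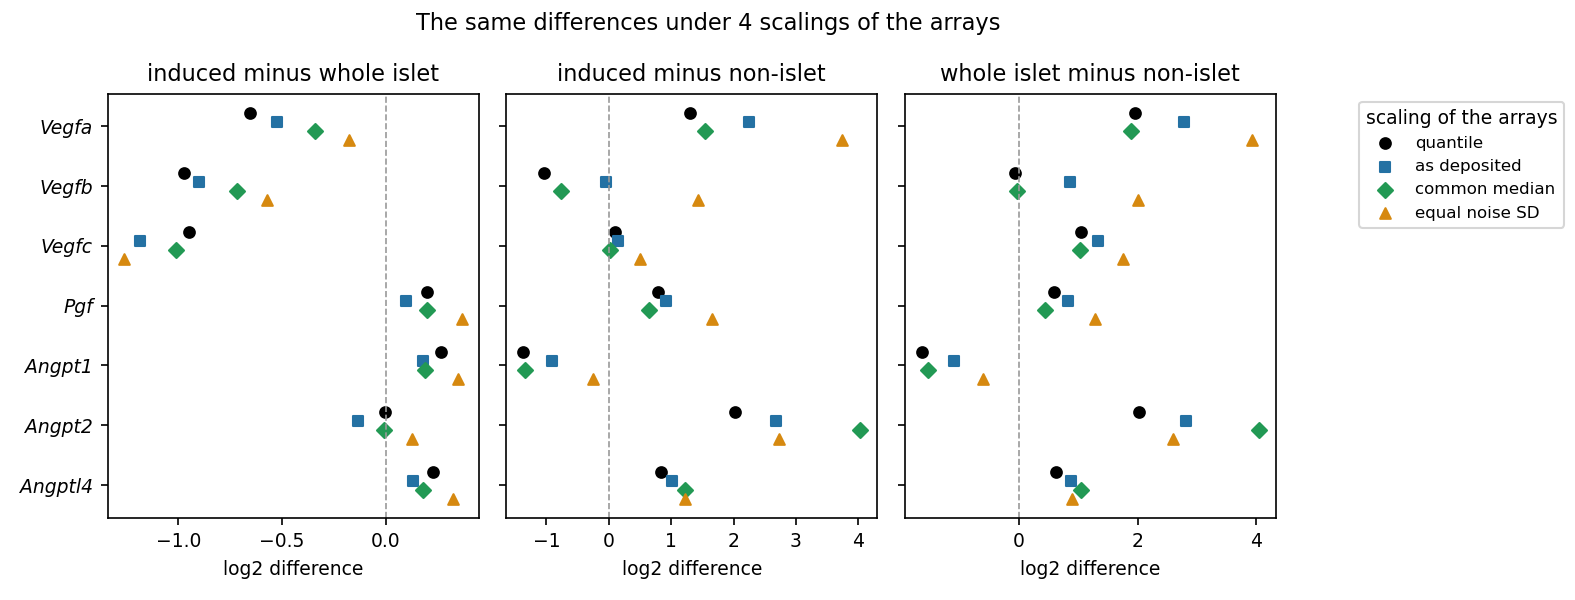
Log2 difference (x axis) of each ligand gene in the 3 comparisons under 4 scalings of the arrays, quantile normalization, the deposited values, a common median and equal noise SD. Vegfa, Vegfb and Vegfc lie below 0 for induced cells minus islets under all 4, whereas Vegfb for induced minus non-islet cells runs between -1.03 and 1.43.

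Most receptors of these ligands that could be tested were lower in induced cells than in islets. Of 7 receptor genes 6 were tested, 0 were higher, 4 were lower and 2 were not called, with a median difference of -1.47 beside -0.04 over all genes. Among all probes 22.5% were higher and 26.1% were lower. Tek and Tie1 met the filter through islets only, so this count and median are descriptions. Flt1, the receptor of Vegfa, Vegfb and Pgf, averaged 5.66 ± 1.30 in induced cells, 447 ± 32.8 in islets and 92.6 ± 9.75 in non-islet cells (SD, n = 3 each), a difference of -4.71 from islets (adjusted p = 9.20e-11). A second Flt1 probe was weak and gave -0.70 (adjusted p = 0.00466). It met the filter through islets only, so this value is a description. Nrp1, a co-receptor of Vegfa also found outside vessels, averaged 90.6 ± 2.26 in induced cells, 342 ± 20.8 in islets and 173 ± 14.0 in non-islet cells, with differences of -1.79 and, for its second probe, -1.53 from islets. Tek, the angiopoietin receptor, was above background on no induced array and at least 3.91-fold lower than in islets, which averaged 45.3 ± 3.93. Tie1, its partner, was likewise above background on no induced array and at least 1.58-fold lower than in islets. Flt4 (-0.30, adjusted p = 0.125) and Nrp2 (-0.13, adjusted p = 0.419), receptors of Vegfc, were not called against islets. The Kdr probe was above background on no more than 1 array of a group, so that the main receptor of Vegfa was not measured here.

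Markers of vessel cells moved in the same comparison. Of 19 endothelial genes tested 0 were higher and 16 were lower in induced cells than in islets, with a median of -2.48. Of all probes 22.5% were higher and 26.1% were lower. Their summed signal was 180 to 207 in induced cells, 3133 to 3314 in islets and 603 to 642 in non-islet cells. Emcn averaged 5.68 ± 0.656 in induced cells and 473 ± 24.2 in islets, Plvap, a protein of fenestrated capillaries, 11.3 ± 1.62 in induced cells and 463 ± 46.2 in islets, and Robo4 2.54 ± 0.983 in induced cells and 213 ± 16.5 in islets. Esm1, which VEGF induces in endothelium, was above background on no induced array and at least 41.0-fold lower than in islets, which averaged 588 ± 20.4. Sox17, Sox18, Icam2 and Cd34 were also above background on no induced array. Esm1, Sox17, Icam2 and Cd34 were above background on no non-islet array either, and Erg on no array of any group. Esm1, Sox17, Icam2 and Cd34 thus met the filter through islets only, so the endothelial count and median are descriptions. Induced cells were sorted for GFP, whereas islets were taken whole with their capillaries. In such bulk samples this preparation, fewer cells of a type and less RNA per cell cannot be told apart. The part of vessel cells in the differences of Vegfc and the other ligands from islets was not tested.

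Other non-endocrine lists were mixed. Of 6 pericyte and smooth muscle genes 4 were lower in induced cells than in islets, namely Acta2, Pdgfrb, Kcnj8 and Notch3, and none was higher (median -0.84). Their summed signal was 50.5 to 56.5 in induced cells and 156 to 174 in islets. Of 7 stellate and fibroblast genes 6 were lower (median -0.75), among them Mgp (-3.26) and Dcn (-2.26). Of 7 macrophage genes 5 were lower and Cd14 was higher (median -1.05). Of 4 lymphatic endothelial genes Prox1, which hormone and duct cells also express, was higher (1.80), Reln was lower (-0.93) and 2 were not called (median 0.28). All 7 duct cell genes were higher in induced cells (median 1.88), with Muc1 at 479 ± 26.1 in induced cells and 28.2 ± 3.86 in islets. Against non-islet cells, where Muc1 averaged 933 ± 15.9, 3 duct cell genes were higher in induced cells and 2 were lower. Of all probes 39.6% were higher and 36.6% were lower in that comparison. Against islets again, of 8 acinar genes 1 was higher and 3 were lower (median -0.20), or 7 lower in the deposited values. Of 5 genes of the other hormone cells 1 was higher and 4 were lower (median -2.27). The beta cell list had a median of -2.10.

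Many ligands outside the VEGF and angiopoietin families were higher in induced cells. Of 14 other angiogenic ligands tested 9 were higher in induced cells than in islets, 2 were lower and 3 were not called, with a median of 0.84. Of all probes 22.5% were higher and 26.1% were lower. Hbegf, an EGF receptor ligand, averaged 139 ± 7.65 in induced cells against 11.9 ± 0.743 in islets, which is a difference of 2.66 (adjusted p = 6.78e-09). Pdgfa, a mitogen of mesenchymal cells, averaged 307 ± 33.4 in induced cells against 66.2 ± 1.55 in islets, which is a difference of 2.03 (adjusted p = 2.45e-08). Tgfb1 was above background on 3 induced arrays and no islet array and was at least 3.07-fold higher in induced cells. Fgf1 was lower, at 2.74 ± 0.784 in induced cells and 27.9 ± 3.09 in islets. Against non-islet cells 9 of the 14 were higher in induced cells and 3 were lower, beside 39.6% and 36.6% of all probes. In islets 8 were higher and 5 were lower, beside 40.5% and 34.1%. Of the 18 list genes with a probe 12 were above background on no non-islet array, so the counts against non-islet cells are descriptions. Of 3 other members of the ligand families tested, only Angptl6 was called, with a difference of -0.60 (51.5 ± 3.76 in induced cells against 84.2 ± 6.58 in islets, adjusted p = 0.00243), and its second probe gave 0.07 (adjusted p = 0.790). This list had a median of -0.16.

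Angiogenesis inhibitors and the genes that answer low oxygen showed both directions. Of 6 inhibitors tested, Sema3f (1.33) and Col18a1 (0.44), the source of endostatin, were higher in induced cells than in islets, and Timp3 (-1.72) and Serpinf1 (-0.87) were lower, with a median of -0.22. Of 14 hypoxia response genes 6 were higher and 4 were lower (median 0.32). Ldha, lactate dehydrogenase, which islets keep low, averaged 182 ± 10.3 in induced cells against 9.69 ± 0.253 in islets, which is a difference of 3.17 (adjusted p = 4.76e-10), and Pdk1 was higher (1.01). Ankrd37 (-1.35) and Vldlr (-1.22) were lower. Of 3 tested genes of the hypoxia-inducible factors and their regulators, Hif3a was lower (-0.41, adjusted p = 0.00519) and 2 were not called (median -0.05), and the probe of Hif1a was above background on no array. Of 7 PPAR targets, the set to which Angptl4 belongs by its regulation, 4 were higher and 1 was lower (median 0.34), with Pdk4 at 0.98 and Acadm at -0.53.

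**Figure D4:**
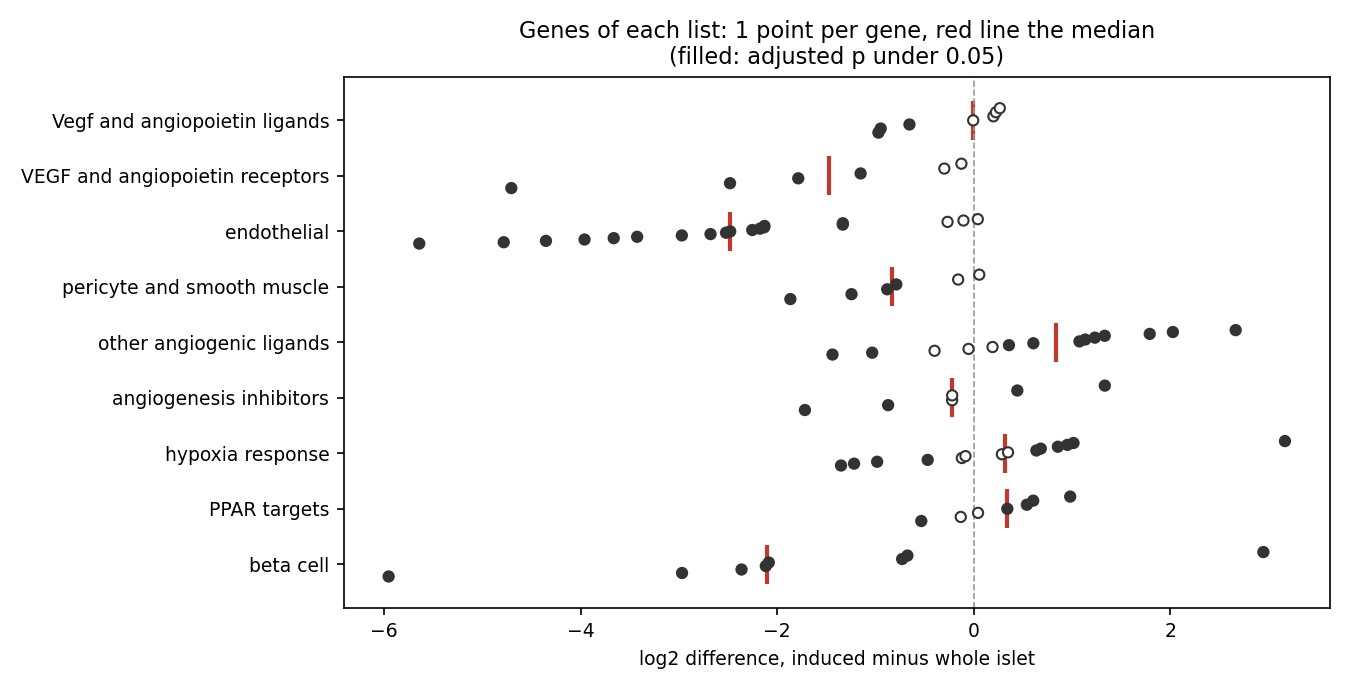
Log2 difference of induced cells from islets (x axis) for the tested genes of 9 lists (rows), 1 point per gene, filled where the adjusted p was under 0.05, with the median of each list as a red line. The ligand genes lie between -0.97 and 0.26, most receptor and endothelial genes below 0, and most other angiogenic ligands above 0.

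The genes most like each ligand across the 9 arrays were taken by Pearson correlation of log2 signal over 9936 other genes, as a description, since the arrays share 3 group means. For Vegfa they were Btrc (r = 0.999), Myo6 (0.997) and Magee1 (0.997), and for Vegfb P4hb (0.996), Rnf166 (0.992) and Trim27 (0.991). For Vegfc they were Arsb (0.989), Id1 (0.987) and Hpgds (0.987), and for Pgf Triqk (0.992), Pogz (0.988) and Pnisr (0.988). For Angpt1 they were Sult1c2, Mpzl2 and Slc30a2, for Angpt2 Anapc16, Cbfb and Stx7, and for Angptl4 Galns, Pitpnc1 and Cyb561. The number of genes at r over 0.95 was 1056 for Angpt1, 754 for Angpt2, 716 for Vegfa, 289 for Angptl4, 132 for Vegfb, 113 for Pgf and 98 for Vegfc.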

How the data were processed

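Total RNA had been taken up in Trizol, amplified with an Ambion TotalPrep kit and labelled with biotin, per the labels' protocols. The authors deposited intensity values made with BeadStudio, per the submitters' processing notes, which give no version. From the values, they were linear and background-subtracted, and all 9 arrays shared a mean of 74.2, so the deposited values, used as an alternative, are themselves scaled to a common mean. A further deposited table has 36 columns named by slide position (2 slides), which no label ties to a sample. It was not used, and slide and group cannot be told apart.

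Intensities were quantile-normalized, 11.9 was added and log2 was taken. The noise SD of each array came from its negative values, mirrored, and signals over 1.645 noise SD counted as above background. A probe stayed if some group had it above background on each of its 3 arrays, 13928 of 24613 probes and 7 of the 10 ligand probes. This replaces a planned filter on detection p-values. Of all probes 20984 carried 1 symbol, 1 carried several and 3628 none, and the brightest tested probe of a gene stood for it. The groups entered limma 3.58.1 together (lmFit, eBayes, 9 arrays, 1 mean per group, 6 residual degrees of freedom) in R 4.3.3, two-sided, with Benjamini-Hochberg adjustment over all tested probes at 0.05. Where no array of a group was above background, a bound ("at least") is given against the lowest signals above background there.

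The ligand genes, the 16 lists and the rules were chosen with earlier results of these data known. All ligand probes, all receptors, up to 4 called genes of each list with the largest differences and the 3 genes most like each ligand were named. Sox17, Sox18, Icam2, Erg, Cd34 and Hif1a were named after their values were seen. Alternatives were other offsets, scalings, filters, variance models and sample sets, a replicate block, other probes and leaving out each array. The procedure was tested on simulated data, with changes planted in brighter probes only. That trial does not cover weak probes such as that of Angptl4. The number of arrays limits the precision.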

Additional observations from a re-analysis of the deposited data

How the results depend on the processing

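Under the alternatives tried, 401 of 429 ligand values kept their direction and their side of the threshold. Limits are the strength of weak probes (Vegfc, Pgf, the angiopoietins and Angptl4 lie near background) and the 3 arrays per group. Vegfa for induced cells minus islets lost its call at equal noise SD (-0.18). Pgf for the same comparison was called at equal noise SD (0.36), with array weights (0.20) and with the 2 compared groups only (0.20). Angptl4 was called at equal noise SD (0.32) and with the 2 groups only (0.22). Angpt1 was called at equal noise SD (0.35), with array weights (0.27) and with the 2 groups only (0.26), its other probe gave -0.050, and leaving out 1 array at a time gave 0.22 to 0.34, with calls without islet array 3, non-islet array 1 and non-islet array 3. Angpt2 for induced cells minus islets, -0.01 as reported, was 0.12 at equal noise SD and 0.059 with array weights, and leaving out 1 array gave -0.074 to 0.055, above 0 without induced array 2, induced array 3 or islet array 1. For induced minus non-islet cells Vegfb was -0.050 as deposited and 1.43 at equal noise SD, Vegfc was called at equal noise SD (0.49) and was -0.074 to 0.20 with 1 array left out (lowest without non-islet array 2), Angpt1 was -0.48 by its other probe and Angptl4 -0.091 by its other probe. For islets minus non-islet cells Vegfb was 0.85 as deposited and 2.00 at equal noise SD, Angpt1 was -0.43 and Angptl4 -0.22 by their other probes. Among other genes, Cpb1 for induced cells minus islets was 0.029 at equal noise SD. Nrp1 for induced minus non-islet cells was 0.23 as deposited and 1.64 at equal noise SD, Tek 0.073 as deposited, 0.20 at a common median and -0.39 to 0.014 with 1 array left out (above 0 without induced array 2), and Tie1 -0.00231 to 0.15 (below 0 without non-islet array 1). Flt4 for islets minus non-islet cells was 0.20 at equal noise SD. The causes were not tested.

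Arrays of the same replicate number had correlations of -0.12 to 0.19 over 9 pairs, and those of different number -0.22 to 0.21 over 18 pairs. No pairing by number was seen, but so few arrays cannot exclude it. With a replicate block 6610 probes were called between induced cells and islets, 10582 between induced and non-islet cells and 10347 between islets and non-islet cells, and 3 ligand genes stayed called as lower against islets. The planned filter on detection p-values was not run, since the table that holds them names no sample.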
